A study of Danio rerio with 20 samples.

Results

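The 9 genes described here encode terminal nucleotidyltransferases, enzymes that add nucleotides to the 3′ end of RNA without a template. They are zcchc11, ZCCHC6, tut1, papd4, papd7, PAPD5, mtpap, fam46ba and fam46c, taken by exact gene name from the 32105 named entries of the deposited table and followed in all 20 libraries. The study asked what becomes of maternal mRNA in zebrafish embryos whose TUT4 and TUT7 are blocked. zcchc11 encodes TUT4 and ZCCHC6 encodes TUT7, the targets of the injected morpholinos, which are stable antisense oligonucleotides.

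An egg supplies the embryo with mRNA before the embryo's own genome is switched on, and much of that maternal mRNA is degraded during the maternal-to-zygotic transition. The length and makeup of an mRNA's tail bear on its life: in vertebrate cells TUT4 and TUT7 add uridines to mRNAs whose poly(A) tail has become short, and such mRNAs are then degraded. Other enzymes of the family lengthen or edit tails. GLD2, the papd4 product, extends poly(A) tails in the cytoplasm and is best known from frog oocytes. TENT4A and TENT4B, the papd7 and PAPD5 products, add adenosines mixed with other nucleotides in human cells, and TENT4B also marks nuclear RNAs for the exosome.

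Every library came from whole embryos of the wild-type AB strain, injected at the single-cell stage and staged by hours post fertilization (hpf). TUT47MO embryos received translation-blocking morpholinos against both TUT4 and TUT7, TUT7MO or TUT4MO embryos received the one against that enzyme alone, and ConMO embryos received a control morpholino. Set rs1a held all 4 treatments at 2, 4 and 6 hpf, set rs1b held TUT47MO and ConMO at 3 and 6 hpf, and set rs2 held TUT47MO and ConMO at 3 and 5 hpf, with 1 library for each treatment and hour of a set. The 2 and 3 hpf libraries are called early and the 5 and 6 hpf libraries late, so there were 3 TUT47MO and 3 ConMO libraries in each phase. The labels give neither the number of embryos in a library nor the clutches they came from. A morpholino of this kind blocks translation of its mRNA and need not change the mRNA's amount, so the RNA level of zcchc11 or ZCCHC6 is no check of the knockdown.

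Ribosomal RNA was depleted before sequencing and RNA was not selected by poly(A), which keeps mRNAs with short tails in view. The libraries held 11914200 to 32786700 estimated reads. Levels are CPM, counts relative to the library's total, with TMM scaling over the 20 libraries; they are not per length, so only levels of the same gene are set against each other. Entries AC024175.4 and AC024175.17 took 44.6% to 51.6% of the reads in 6 rs1a libraries (all 4 at 6 hpf, and TUT47MO and TUT7MO at 4 hpf), 9.88% to 14.4% in the other 6 of that set and 1.17% to 9.54% in the 8 libraries of rs1b and rs2. Libraries of the same morpholino and phase differed by more than counting noise, with a chi-square per degree of freedom of 25.1 to 207. The highest values, 141 and 207, both set the TUT47MO library of rs2 at 5 hpf against 6 hpf libraries. Pairs of the same hour gave 25.1 (ConMO) and 31.1 (TUT47MO) at 6 hpf and 87.5 and 90.3 at 3 hpf. The other pairs differed in hour as well as set. The late samples also differed in stage markers. The summed level of 6 maternal and oocyte genes was 580 to 1017 CPM in late TUT47MO and 89.3 to 255 CPM in late ConMO libraries. The summed level of 20 genes of the early germ layers and extraembryonic layers was 1525 to 2325 CPM in late TUT47MO and 5479 to 9080 CPM in late ConMO libraries. None of these marker genes was at 0 in a late library, and the part of these stage markers in the results below was not tested. In whole embryos, fewer cells of a type and less RNA per cell cannot be told apart.

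In ConMO embryos 8 of the 9 mRNAs changed between the phases. fam46c, mtpap, papd7, papd4 and PAPD5 were lower late than early, fam46ba, ZCCHC6 and tut1 were higher, and zcchc11 did not pass the test. Across the 17022 genes tested 73.5% were called in this comparison, 35.5% higher and 38.1% lower, so a count of 8 in 9 is not far from what all genes showed. A gene was called where limma's Benjamini-Hochberg adjusted p, taken over all genes tested, was under 0.05. The median log2 change of the 9 members was −0.79, against −0.08 for all genes. With the libraries compared on the scale of the deposited values, whose origin the sources used here do not state, 2 of the 9 were called. Those were fam46c and fam46ba. Of the 17022 genes, 2596 were higher and 2046 lower on that scale. The rs1b values carry no library factor, so each comparison on that scale that includes rs1b leaves rs1b uncorrected for depth. The comparisons within rs1a do not include it. The rs1b ConMO libraries held 18298400 reads at 3 hpf and 11914200 at 6 hpf, and the rs1b TUT47MO library 14778800 at 6 hpf.

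In the hours of rs1a, averaged over its 4 treatments, more members passed from 4 to 6 hpf than from 2 to 4 hpf. From 2 to 4 hpf, 2 of the 9 passed, fam46ba higher and papd4 lower, where 4.83% of 17051 genes were called. From 4 to 6 hpf, 8 of the 9 passed, where 57.6% of genes were called: zcchc11, ZCCHC6, tut1 and fam46ba were higher and papd4, papd7, mtpap and fam46c lower. The split of all calls depends on the scale: with TMM 63.3% of those from 2 to 4 hpf and 46.3% of those from 4 to 6 hpf were higher, and on the deposited scale 32.5% and 20.1%. Of the members on that scale from 4 to 6 hpf, 1 was higher and 5 were lower.

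In late embryos with both enzymes blocked, 5 of the 9 mRNAs differed from ConMO with TMM scaling. fam46c, PAPD5, papd7 and fam46ba were higher in TUT47MO and papd4 was lower; zcchc11, ZCCHC6, tut1 and mtpap did not pass. With DESeq2, with median-of-ratios factors and with the AC024175 entries left out of the totals 7 were called, 4 higher and 3 lower, the added ones being ZCCHC6 and tut1; on the deposited scale 4 were called, all higher. Of the 18075 genes tested, 64% were called, 34.5% higher and 29.5% lower, so a share of 5 in 9 is near the background. The median log2 change was 0.24 over the members and 0.09 over all genes. On the deposited scale the all-gene median was 0.32 and 67.7% of the called genes were higher, against 53.9% with TMM and 45.5% with median-of-ratios factors. Leaving out 1 set at a time left 4 to 6 members called, and with the matched set and hour left out of the model 3 members were called. The share of all genes called in these fits is not given here. Of all genes, 6632 were higher and 3165 lower on the deposited scale, and 5341 and 6407 with median-of-ratios factors. DESeq2 gave 4987 and 5981, and the AC024175 entries left out of the totals gave 5798 and 5883.

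In early embryos no member passed the test between TUT47MO and ConMO, and of all 18075 genes limma called 0, or 0%, with 0.575% at an unadjusted p under 0.05. edgeR and DESeq2 also called no member and no gene. On the deposited scale no member was called and 3 genes were, all higher, with an all-gene median of 0.19. The early SEs share 1 estimate of spread with the late libraries. With the 6 libraries of the early phase alone, 0 members were called as well. Among the members fam46ba had an unadjusted p of 0.0455 in limma. The difference between the late and the early effect was tested as such: 49.5% of all genes were called, and so were the same 5 members that were called late. That count varied more than the late one, from 1 without rs1a and 2 without rs1b to 6 without rs2. With DESeq2 and with median-of-ratios factors it was 7. The share of all genes called without a set is not given here, so those counts cannot be read as particular to the members. With 1 set left out the difference lay at 2.09 to 2.27 log2 for fam46c and 0.79 to 1.15 for papd7. It lay at 0.83 to 1.00 for fam46ba, 0.66 to 1.11 for PAPD5 and −0.65 to −0.55 for papd4. Without rs1a the only member called was fam46c.

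**Figure D1:**
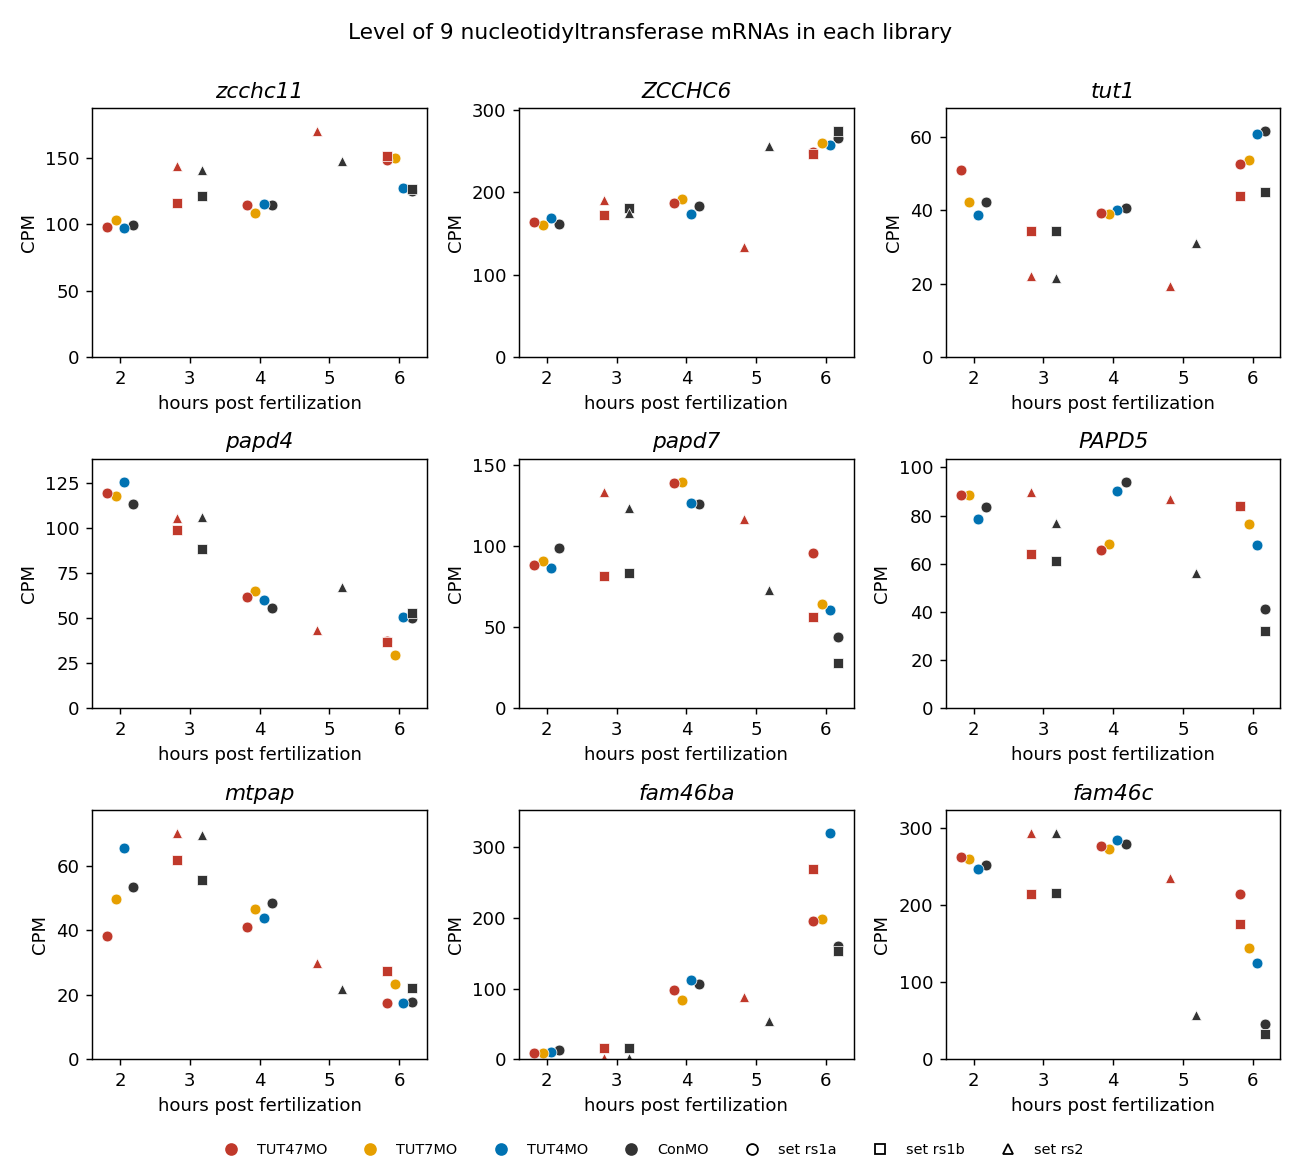
Level in CPM (y axes from 0, a scale for each gene) of the 9 mRNAs against hours post fertilization; each point is 1 library, with colour for the morpholino, shape for the set and a small sideways offset between morpholinos. The ConMO points of fam46c at 5 and 6 hpf lie between 32.4 and 56.8 CPM, below all other fam46c points.

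**Figure D2:**
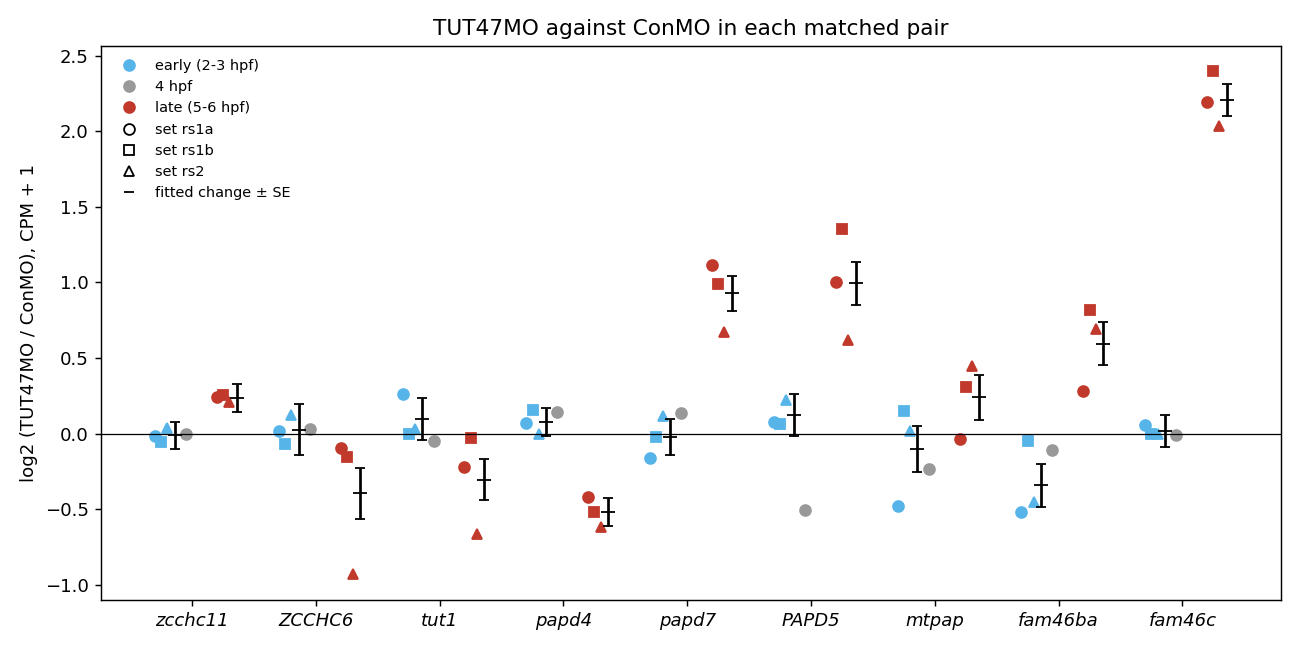
Log2 ratio of TUT47MO to ConMO on the CPM + 1 scale for each matched pair of libraries (colour for the phase, shape for the set); black bars are the fitted change ± SE of the early and late effects. Late fam46c points lie between 2.04 and 2.40 and its early points close to 0.

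TUT4 and TUT7 share a domain layout and act on overlapping RNAs; in mammalian cells they also uridylate precursors of the let-7 microRNAs. The zcchc11 mRNA varied between 97.1 and 170.1 CPM over the 20 libraries. In late embryos it stood at 148, 151 and 170.1 CPM in TUT47MO (rs1a, rs1b and rs2, the order used throughout) and 125, 127 and 147 CPM in ConMO libraries. The late groups did not overlap, though the lowest TUT47MO value (rs1a) lay within 1 CPM of the highest ConMO value (rs2). The fitted change was 0.24 ± 0.09 log2 (SE, n = 3 pairs; adjusted p = 0.0505), which did not pass. It passed without rs2 (adjusted p = 0.0177), with no filter on low reads (0.0458) and with a pseudocount of 5 CPM (0.036), and the p ranged up to 0.743 over the 15 other settings. Early levels were 98.1, 116 and 144 CPM in TUT47MO and 99.3, 121 and 140.5 CPM in ConMO libraries. These early values differed more between sets than between morpholinos, with rs2 the highest in both phases.

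The course of zcchc11 was slight. In ConMO embryos the late level exceeded the early one by 0.15 ± 0.12 log2 (adjusted p = 0.282). On the deposited scale the change was −0.12, where the median of all genes was −0.26. Over the 3 hours of rs1a its 4 libraries lay at 97.1 to 103 CPM at 2 hpf, 109 to 115 CPM at 4 hpf and 125 to 149 CPM at 6 hpf. The groups of hours did not overlap; the step from 2 to 4 hpf did not pass (0.18 ± 0.09, adjusted p = 0.324) and that from 4 to 6 hpf did (0.27 ± 0.09, adjusted p = 0.0263). That later step lost its call without TUT47MO (adjusted p = 0.102), TUT4MO (0.0752) or TUT7MO (0.154). On the deposited scale the 4 to 6 hpf difference was −0.21, below 0, while the median of all genes there was −0.39.

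A second entry of the table is named ZCCHC11 (1 to many), a name the files do not explain. It is not among the 9, but reads of related sequence may have been divided between both entries. Late levels of this entry were 100.4, 97.7 and 101 CPM in TUT47MO and 93.1, 87.7 and 96.8 CPM in ConMO libraries. Its late change, 0.11 ± 0.09 log2, did not pass (adjusted p = 0.303). Pearson's r between both entries over the 20 libraries was 0.961, a description of points that share depth and composition.

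**Figure D3:**
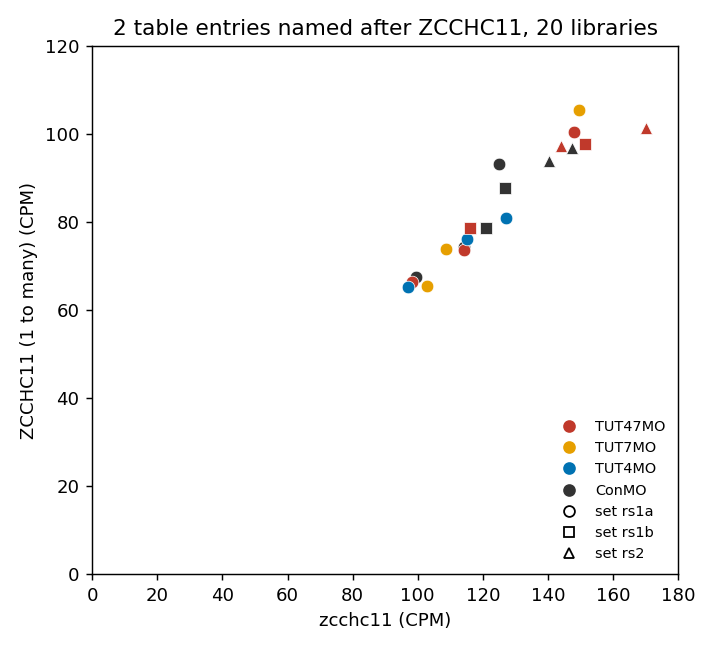
Level in CPM of the second entry (y axis) against zcchc11 (x axis), 1 point a library, with colour for the morpholino and shape for the set. The points rise together, from 97.1 and 65.3 CPM in TUT4MO at 2 hpf to 170.1 and 101 CPM in TUT47MO of rs2 at 5 hpf.

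ZCCHC6, the TUT7 gene, rose with time relative to the library total with TMM scaling. Its ConMO level was 266, 275 and 256 CPM late and 162, 181 and 175 CPM early, with no overlap. The rise was 0.62 ± 0.11 log2 (adjusted p = 0.00166). In rs1a most of it came between 4 and 6 hpf: the libraries held 161 to 169 CPM at 2 hpf, 173 to 192 CPM at 4 hpf and 249 to 266 CPM at 6 hpf. The 4 to 6 hpf difference was 0.49 ± 0.08 log2 (adjusted p = 0.00126) and that from 2 to 4 hpf 0.17 ± 0.08 (adjusted p = 0.314). On the deposited scale the 4 to 6 hpf difference was −0.0002, where the median of all genes was −0.39. The ConMO change late against early was 0.34 on that scale and did not pass (limma, adjusted p = 0.832). The median of all genes there was −0.26.

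The late ZCCHC6 level was 249, 246 and 134 CPM in TUT47MO and 266, 275 and 256 CPM in ConMO libraries. All 3 pairs were lower in TUT47MO, but by unequal amounts: the log2 ratios were −0.10, −0.16 and −0.93, so the size rests on rs2 at 5 hpf. The fitted change was −0.39 ± 0.17 log2 and did not pass (adjusted p = 0.0711); without rs2 it was −0.13 (adjusted p = 0.165). It passed with DESeq2 (−0.60, adjusted p = 0.00197), with median-of-ratios factors (−0.59, 0.0107) and with the AC024175 entries left out of the totals (−0.50, 0.0242). At the early phase TUT47MO libraries held 164, 173 and 191 CPM and ConMO libraries 162, 181 and 175 CPM, with no common order over the pairs.

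tut1 encodes TUT1, which in human cells adds uridines to the U6 spliceosomal RNA. Its late level was 52.8, 43.9 and 19.3 CPM in TUT47MO and 61.7, 44.9 and 31.2 CPM in ConMO libraries. The groups overlapped and the values differed more between sets than between morpholinos, with rs2 lowest in both. Late rs2 libraries were also of an earlier hour than the other late ones, and the part of the hour was not tested. At 3 hpf in both sets, tut1 was at 22.0 CPM (TUT47MO) and 21.5 CPM (ConMO) in rs2 and at 34.3 CPM in each rs1b library. The late change of −0.31 ± 0.14 log2 did not pass (adjusted p = 0.0841). It passed under the same 3 settings as ZCCHC6, at −0.51, −0.49 and −0.41. On the deposited scale it was 0.05, where the median of all genes was 0.32. Early levels were 51.0, 34.3 and 22.0 CPM in TUT47MO and 42.3, 34.3 and 21.5 CPM in ConMO libraries (0.10 ± 0.14, adjusted p = 1). In ConMO embryos tut1 rose by 0.48 ± 0.14 log2 late against early (adjusted p = 0.0146), to 146%, 131% and 145% of the early level. Without rs1a this call was lost (0.45, adjusted p = 0.16). In rs1a it stayed at 38.7 to 51.0 CPM at 2 hpf and 39.0 to 40.6 CPM at 4 hpf and stood at 52.8 to 61.7 CPM at 6 hpf. The last step passed (0.51 ± 0.11, adjusted p = 0.00436). On the deposited scale that step was 0.04 (limma, adjusted p = 0.772), where the median of all genes was −0.39.

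papd4, the GLD2 gene, was called lower in late TUT47MO, under TMM and under the settings that also called ZCCHC6 and tut1 lower. Its late level was 37.1, 36.6 and 43.6 CPM in TUT47MO and 50.0, 53.0 and 67.4 CPM in ConMO libraries. No TUT47MO value reached a ConMO value, and the change was −0.52 ± 0.09 log2 (n = 3 pairs, adjusted p = 0.00177). Early levels were 119.5, 99.0 and 106 CPM in TUT47MO and 114, 88.6 and 106 CPM in ConMO libraries, which overlapped (0.08 ± 0.09, adjusted p = 1). The late effect less the early one was −0.60 ± 0.13 (adjusted p = 0.00771). The late call was lost on the deposited scale, at −0.16 where the median of all genes was 0.32; less that median, the values were −0.47 there and −0.61 with TMM.

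papd4 was called lower at 4 hpf than at 2 hpf. In rs1a it lay at 114 to 126 CPM at 2 hpf, 55.9 to 65.0 CPM at 4 hpf and 29.7 to 50.5 CPM at 6 hpf, with no overlap between hours. The difference from 2 to 4 hpf was −0.96 ± 0.15 log2 (adjusted p = 0.00845), and that from 4 to 6 hpf −0.56 ± 0.15 (adjusted p = 0.0138). Each step lost its call when single treatments were left out, the first without TUT47MO (adjusted p = 0.0613) or TUT4MO (0.0848), the second without TUT47MO (0.0624) or TUT7MO (0.07). The second was also lost with DESeq2 (−0.41, adjusted p = 0.0786) and with median-of-ratios factors (−0.43, 0.0619). Late ConMO embryos had 43.9%, 59.8% and 63.5% of the early level of their set, and late TUT47MO embryos 31.1%, 37.0% and 41.1%.

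papd7 and PAPD5, the TENT4A and TENT4B genes, were both higher in late TUT47MO. PAPD5 stood at 83.9, 84.0 and 87.1 CPM in TUT47MO and 41.3, 32.2 and 56.2 CPM in ConMO libraries. The TUT47MO values were close to each other and above all ConMO values, by 0.99 ± 0.14 log2 (adjusted p = 0.000509). papd7 stood at 96.0, 56.2 and 117 CPM in TUT47MO and 43.7, 27.7 and 72.9 CPM in ConMO libraries. Here the groups overlapped, with rs2 high and rs1b low in both, while every pair was higher in TUT47MO (log2 ratios 1.12, 0.99 and 0.67). The late rs2 pair was of an earlier hour than the other late pairs, so set and hour cannot be told apart for late rs2. At 3 hpf, an hour that both sets held, papd7 was at 134 CPM (TUT47MO) and 123 CPM (ConMO) in rs2. In rs1b it was then at 81.8 and 83.2 CPM. The fitted late change of papd7 was 0.93 ± 0.12 log2 (adjusted p = 0.000292), and with the matched set and hour left out of the model the p was 0.0502.

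Early, neither passed the test. PAPD5 held 88.4, 64.2 and 89.7 CPM in TUT47MO and 83.6, 61.3 and 76.9 CPM in ConMO libraries (0.12 ± 0.14 log2). papd7 held 88.1, 81.8 and 134 CPM in TUT47MO and 98.6, 83.2 and 123 CPM in ConMO libraries (−0.02 ± 0.12 log2). Both adjusted p-values were 1, and both late effects exceeded the early ones, by 0.87 ± 0.20 for PAPD5 (adjusted p = 0.00829) and 0.95 ± 0.17 for papd7 (adjusted p = 0.0027). The ConMO comparison, which shares its late ConMO libraries with the late comparison, gave −0.79 ± 0.15 for PAPD5 (adjusted p = 0.00235) and −1.15 ± 0.17 for papd7 (adjusted p = 0.000562), late against early.

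In rs1a papd7 lay at 86.5 to 98.6 CPM at 2 hpf, 126 to 139.7 CPM at 4 hpf and 43.7 to 96.0 CPM at 6 hpf. The 4 hpf libraries were the highest of each treatment; the step up did not pass (0.54 ± 0.18, adjusted p = 0.134; 0.0322 with DESeq2) and the step down did (−1.05 ± 0.18, adjusted p = 0.00148). PAPD5 at 4 hpf was 65.7 CPM in TUT47MO, 68.1 CPM in TUT7MO, 90.1 CPM in TUT4MO and 94.0 CPM in ConMO. Those TUT47MO and TUT7MO libraries are also the ones with a high AC024175 share at 4 hpf, 44.6% and 44.7%, against 13.5% in TUT4MO and 14.4% in ConMO, and its part in the PAPD5 values was not tested. Neither hour step of PAPD5 passed (−0.11 ± 0.22 and −0.27 ± 0.22, adjusted p = 0.888 and 0.322). The 4 to 6 hpf step was −0.74 on the deposited scale and passed there (adjusted p = 0.019), where the median of all genes was −0.39; without ConMO it was 0.04 (adjusted p = 0.864).

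mtpap encodes the poly(A) polymerase of mitochondria, which completes the tails of mitochondrial mRNAs. Its late level was 17.3, 27.4 and 29.9 CPM in TUT47MO and 17.8, 21.9 and 21.7 CPM in ConMO libraries. The groups overlapped, with rs1a equal and the other pairs higher in TUT47MO; the change of 0.24 ± 0.15 log2 did not pass (adjusted p = 0.195). Late ConMO embryos had 33.3%, 39.4% and 31.2% of the early level, and late TUT47MO embryos 45.4%, 44.3% and 42.7%. The ConMO difference was −1.49 ± 0.15 log2 (adjusted p = 6.8e-05).

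Early mtpap was 38.1, 61.8 and 70.1 CPM in TUT47MO and 53.5, 55.6 and 69.4 CPM in ConMO libraries, with no order between the groups. The TUT47MO library of rs1a at 2 hpf was the lowest of the 4 at that hour, where the other 3 held 49.8 to 65.4 CPM. In the same set mtpap was at 40.9 to 48.4 CPM at 4 hpf and 17.3 to 23.4 CPM at 6 hpf. The step from 4 to 6 hpf passed (−1.21 ± 0.15 log2, adjusted p = 0.000359) and that from 2 to 4 hpf did not (−0.18 ± 0.15, adjusted p = 0.628).

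fam46c and fam46ba encode TENT5C and TENT5B, cytoplasmic poly(A) polymerases of the FAM46 family. TENT5C is best known from mouse and human plasma cells, where it extends the tails of immunoglobulin mRNAs. fam46c had the largest late change of the 9. Its late level was 215, 175 and 236 CPM in TUT47MO and 46.2, 32.4 and 56.8 CPM in ConMO libraries, far apart in each set. The change was 2.21 ± 0.11 log2 (n = 3 pairs, adjusted p = 1.5e-05), it held under all 15 other settings, and it ranged over them between 1.66 and 2.57.

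Early, the fam46c values of a set lay close together. TUT47MO libraries held 263, 215 and 294 CPM and ConMO libraries 253, 216 and 294 CPM, a difference of 0.02 ± 0.11 log2 (adjusted p = 1). The late effect exceeded the early one by 2.19 ± 0.15 log2 (adjusted p = 0.00024). Late TUT47MO embryos had 82.0%, 81.4% and 80.4% of the early fam46c level of their set, and late ConMO embryos 18.3%, 15.0% and 19.3%. In ConMO the late minus early change was −2.49 ± 0.13 log2 (adjusted p = 4e-06). At 4 hpf the 4 rs1a libraries still lay at 273 to 285 CPM, close to the 248 to 263 CPM of 2 hpf (0.12 ± 0.32, adjusted p = 0.92). The fall came between 4 and 6 hpf and was unequal. At 6 hpf ConMO held 46.2 CPM, TUT4MO 125 CPM, TUT7MO 144 CPM and TUT47MO 215 CPM. Averaged over these 4 treatments the step was −1.26 ± 0.32 (adjusted p = 0.00959, or −1.28 and 0.0567 without TUT4MO). Both steps share this SE, which holds the differences between treatments.

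fam46ba ran the other way in ConMO, with 160.3, 153 and 53.8 CPM late and 12.7, 15.9 and 1.99 CPM early, a gain of 3.65 ± 0.21 log2 (adjusted p = 6.3e-06). Early values were low in all sets and lowest in rs2. In rs1a the libraries held 8.18 to 12.7 CPM at 2 hpf, 83.4 to 111 CPM at 4 hpf and 160.3 to 320.3 CPM at 6 hpf. Both steps up passed, at 3.22 ± 0.18 (adjusted p = 9e-06) and 1.08 ± 0.18 (adjusted p = 0.00139). Its late level was 195, 269.5 and 87.4 CPM in TUT47MO and 160.3, 153 and 53.8 CPM in ConMO libraries. The groups overlapped, with rs2 low in both. The late rs2 pair was of an earlier hour than the others, so set and hour cannot be told apart for late rs2. At 3 hpf in both sets, fam46ba was at 1.18 CPM (TUT47MO) and 1.99 CPM (ConMO) in rs2 and at 15.3 and 15.9 CPM in rs1b. Each late pair was higher in TUT47MO, and the change of 0.60 ± 0.14 log2 passed (adjusted p = 0.00727). It did not pass without rs1b (0.49, adjusted p = 0.0646) or with the 4 hpf pair counted as late (0.42, adjusted p = 0.0839). With the matched set and hour left out of the model, limma's adjusted p was 0.569. Early levels were 8.51, 15.3 and 1.18 CPM in TUT47MO and 12.7, 15.9 and 1.99 CPM in ConMO libraries, lower in each TUT47MO library by a log2 ratio that did not pass (−0.34 ± 0.14, adjusted p = 1). The late effect less the early one was 0.94 ± 0.20 (adjusted p = 0.00675).

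**Figure D4:**
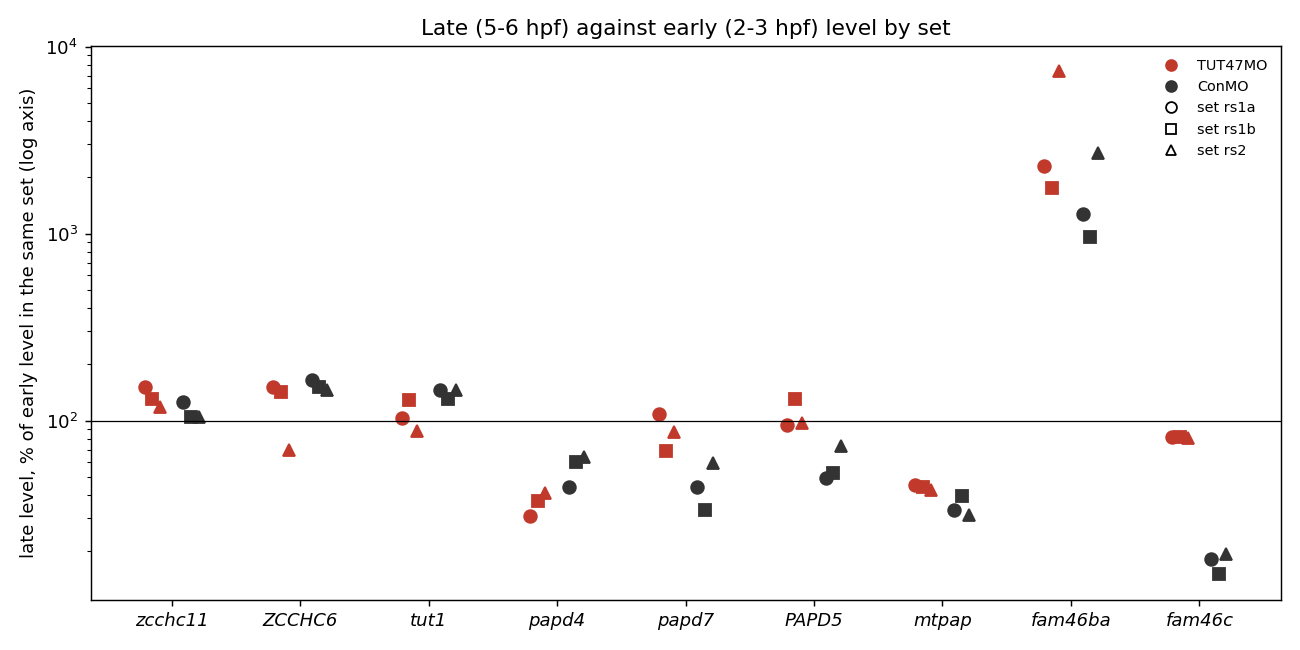
Late level as a percentage of the early level of the same set and morpholino (log axis, line at 100%), with TUT47MO left of ConMO and shape for the set. fam46c stands at 80.4% to 82.0% in TUT47MO and 15.0% to 19.3% in ConMO; fam46ba stands at 963% or more in each.

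With TUT4 or TUT7 blocked alone, members could be followed only in rs1a, with 1 library a treatment and hour. Effects averaged over the 3 hours called none of the 9 in any of the 6 contrasts among TUT47MO, TUT7MO, TUT4MO and ConMO. An effect present at 1 hour alone enters the spread of this model, so these contrasts are poorly able to call it. Of the 17051 genes tested limma called 0% in each contrast, and edgeR none. In limma 177 to 1957 genes, or 1.04% to 11.5%, had an unadjusted p under 0.05. DESeq2 called 0 to 30 genes a contrast and no member. Among the members, fam46ba in TUT7MO against TUT4MO was the only one with an unadjusted p under 0.05 in any of these contrasts (−0.47 ± 0.21 log2, adjusted p = 0.94). For fam46c it gave 0.75 ± 0.37 log2 in TUT47MO, 0.54 ± 0.37 in TUT7MO and 0.47 ± 0.37 in TUT4MO against ConMO (adjusted p = 0.387, 0.562 and 0.999). Without the 6 hpf libraries these values were 0.02, 0.0037 and −0.0023.

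The values at 6 hpf are given with no test, since each is 1 library. fam46c held 215 CPM in TUT47MO, 144 CPM in TUT7MO, 125 CPM in TUT4MO and 46.2 CPM in ConMO. The double morpholino was the highest and both single ones lay between it and ConMO, at log2 ratios to ConMO of 2.20, 1.62 and 1.42. PAPD5 had the same order, at 83.9 CPM in TUT47MO, 76.4 CPM in TUT7MO, 67.8 CPM in TUT4MO and 41.3 CPM in ConMO. So did papd7, at 96.0 CPM in TUT47MO, 64.5 CPM in TUT7MO, 60.8 CPM in TUT4MO and 43.7 CPM in ConMO. How many of all genes had this order is not given here. The other members did not share it. tut1 ran in reverse, at 52.8 CPM in TUT47MO, 53.7 CPM in TUT7MO, 60.8 CPM in TUT4MO and 61.7 CPM in ConMO. With the treatments listed alike, ZCCHC6 held 249, 260, 258 and 266 CPM and mtpap 17.3, 23.4, 17.3 and 17.8 CPM. In fam46ba TUT4MO had the highest level, 320.3 CPM, against 195 CPM in TUT47MO, 198 CPM in TUT7MO and 160.3 CPM in ConMO. papd4 was 37.1 CPM in TUT47MO and 29.7 CPM in TUT7MO, both below the 50.5 CPM of TUT4MO and the 50.0 CPM of ConMO. zcchc11 likewise held 148 CPM in TUT47MO and 149 CPM in TUT7MO, above 127 CPM in TUT4MO and 125 CPM in ConMO.

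The stage markers of these 6 hpf libraries differed too. The 6 maternal genes summed to 585 CPM in TUT47MO, 418 CPM in TUT7MO, 228 CPM in TUT4MO and 111 CPM in ConMO. The 20 zygotic genes summed to 1525 CPM in TUT47MO, 1926 CPM in TUT7MO, 6894 CPM in TUT4MO and 8355 CPM in ConMO. By the zygotic genes TUT7MO stood near TUT47MO and TUT4MO near ConMO, and the part of this in the members' values was not tested. All 4 libraries at 6 hpf had a high AC024175 share, 48.0% to 51.6%.

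**Figure D5:**
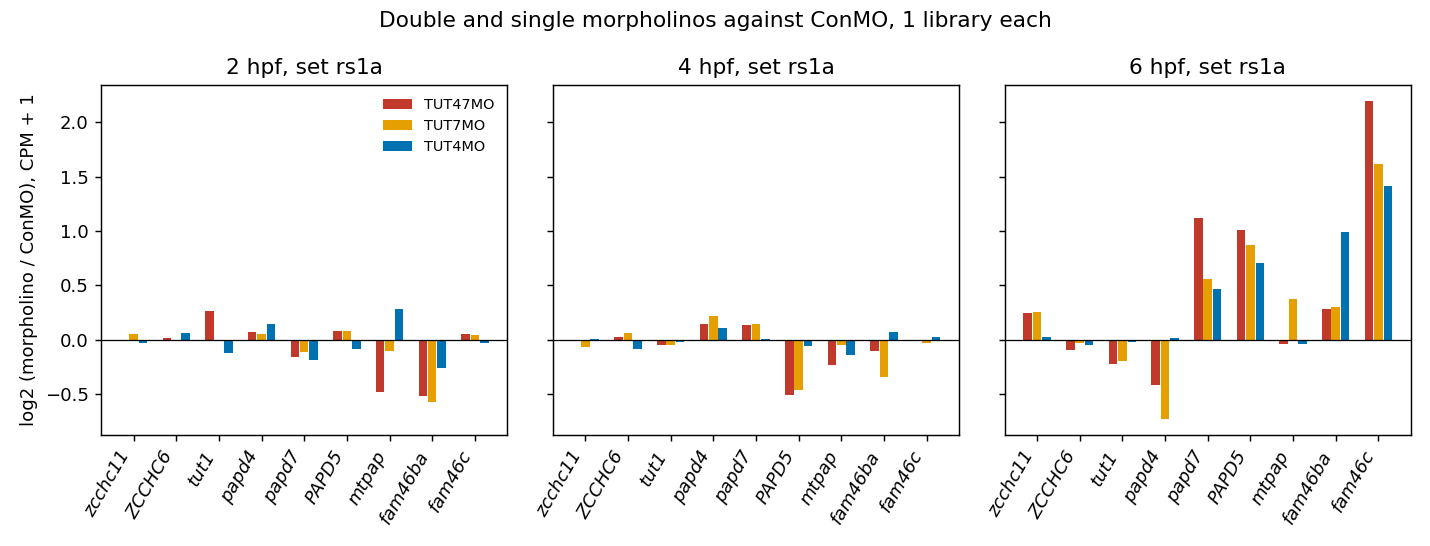
Log2 ratio of TUT47MO, TUT7MO and TUT4MO to ConMO (CPM + 1) for the 9 mRNAs of set rs1a at 2, 4 and 6 hpf; each bar is 1 library against 1 library, with no error. fam46c stands near 0 at 2 and 4 hpf and at 2.20, 1.62 and 1.42 at 6 hpf.

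The genes whose profile over the 20 libraries was most like that of a member were found by Pearson's r of log2(CPM + 1) among 9629 entries. The r describes libraries that share hour, set and depth. Entries with a mean under 5 CPM, with clone or prediction names or marked (1 to many) were left out of this ranking. The second ZCCHC11 entry was thus left out, though its r with zcchc11 was 0.961. For zcchc11 the most alike of those ranked were inppl1a (r = 0.947), dstyk (0.936) and TBC1D8 (0.919). For ZCCHC6 they were FUBP3 (0.975), exoc4 (0.969) and drap1 (0.966). For fam46c they were fam217b (0.990), znf652 (0.989) and kdm4c (0.987).

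Genes that act beside these enzymes were counted in the late TUT47MO to ConMO comparison, to be read against 34.5% higher and 29.5% lower among all genes. Of 3 other poly(A) polymerases tested none was higher and 1 was lower. That was papola, the main nuclear poly(A) polymerase, at −1.35 ± 0.16 log2 (adjusted p = 0.00021); papolg was at 0.10 ± 0.17 and fam46bb, the paralog of fam46ba, at 0.15 ± 0.11. Among 17 genes listed under oligo-U reading, decapping and mRNA degradation, 6 were higher and 8 lower, with a median of −0.13. They ranged from the decapping enzyme gene dcp2 (−1.35 ± 0.12, adjusted p = 5.9e-05) to PATL2 (2.05 ± 0.21, adjusted p = 0.000114). lsm1, a subunit of the ring that binds oligo-U ends, was higher (1.54 ± 0.12, adjusted p = 3.9e-05), and xrn1, a 5′ to 3′ exonuclease gene, was lower (−0.67 ± 0.18, adjusted p = 0.0104). dis3l2, an exonuclease gene that prefers uridylated RNA, did not pass (−0.08 ± 0.20, adjusted p = 0.753). On the deposited scale it was at 0.29, where the median of all genes was 0.32.

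Of 20 deadenylation genes 7 were higher and 4 lower, with a median of 0.21. btg4, an adaptor of the CCR4-NOT deadenylase that is also 1 of the 6 maternal markers, was at 2.24 ± 0.19 (adjusted p = 5.8e-05), parn at 1.08 ± 0.18 (adjusted p = 0.00135), cnot6l at 0.38 ± 0.16 (adjusted p = 0.0713) and cnot3a at −1.52 ± 0.10 (adjusted p = 2.3e-05). Of 15 genes of tail binding and cytoplasmic polyadenylation 5 were higher and 8 lower, with a median of −0.51. cpeb1b, of the family of CPEB proteins that direct cytoplasmic polyadenylation in frog oocytes, was at 1.73 ± 0.13 (adjusted p = 3.2e-05), and pabpc1l, the embryonic poly(A)-binding protein, at 0.85 ± 0.19 (adjusted p = 0.00486). bicc1a, an RNA-binding protein gene, was the highest at 2.18 ± 0.13 (adjusted p = 2.2e-05). pabpc1a, a cytoplasmic poly(A)-binding protein, was at −1.31 ± 0.22 (adjusted p = 0.00122) and CPEB2 at −1.54 ± 0.11 (adjusted p = 2.9e-05).

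The smaller lists follow the other RNAs that the family acts on. Of 4 partners in let-7 processing 2 were higher, dgcr8 (1.30 ± 0.19, adjusted p = 0.000643) and dicer1 (0.58 ± 0.13, adjusted p = 0.00583), lin28a was lower (−1.37 ± 0.26, adjusted p = 0.00204) and LIN28B did not pass (−0.18 ± 0.17). Of 5 genes of the TRAMP complex and nuclear exosome zcchc7 was higher (1.14 ± 0.16, adjusted p = 0.000496) and none was lower, with exosc10 at 0.00 ± 0.11 and skiv2l2 the lowest at −0.14 ± 0.10. Of 5 genes of U6 RNA 3′ end processing ssb (−1.14 ± 0.16, adjusted p = 0.000576) and lsm8 (−0.66 ± 0.11, adjusted p = 0.00137) were lower and none was higher, with usb1 at 0.12 ± 0.16. Of 7 nuclear genes of mitochondrial RNA maturation 2 were higher, with POLRMT, the mitochondrial RNA polymerase, at 1.74 ± 0.10 (adjusted p = 1.9e-05), and lrpprc, PNPT1 and tfam did not pass at 0.03, 0.29 and −0.43. Of the 13 mRNAs encoded in mitochondria 11 were lower, from mt-cyb at −1.04 ± 0.35 (adjusted p = 0.032) on, with mt-co1 at −0.55 ± 0.30 and mt-nd6 at −0.12 ± 0.18 not passing. On the deposited scale none of the 13 passed, with a median of −0.25 in place of −0.61. The median of all genes was 0.32 on that scale and 0.09 with TMM. All 6 maternal markers were higher, zar1 the least at 0.72 ± 0.20 (adjusted p = 0.0151) and zar1l the most at 2.65 ± 0.14 (adjusted p = 1.6e-05). Of the 20 zygotic markers 17 were lower and 1 higher, from her1 at −4.41 ± 0.19 (adjusted p = 1.5e-05) to mxtx2 at 1.31 ± 0.25 (adjusted p = 0.00246). On the deposited scale the oligo-U list had 6 genes higher and 4 lower with a median of 0.24, and the deadenylation list 7 and 1. The tail binding list had 5 and 3, and the U6 list none either way. Of all 18075 genes 6632 were higher and 3165 lower on that scale, with a median of 0.32. Median-of-ratios factors moved counts the other way: 5 higher and 9 lower for oligo-U, 7 and 5 for deadenylation, 4 and 8 for tail binding. Of all genes 5341 were higher and 6407 lower with those factors. The TRAMP list then had 1 and 1, with skiv2l2 at −0.33 (limma, adjusted p = 0.0215), and the mitochondrial RNA maturation list 2 and 1. In early embryos limma with TMM scaling called no gene of any of these lists at an adjusted p under 0.05.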

How the data were processed

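Stranded total RNA was sequenced after depletion of ribosomal RNA and addition of ERCC spike-in, per the labels' protocols; spike-in rows were not used here. STAR 2.5.3a, RSEM and build GRCz10 are named in the submitters' processing notes. The gene table deposited by the authors holds estimated (expected) counts for rs1b. Its rs1a and rs2 columns are a deposited signal in which each library's estimated counts are multiplied by 1 factor (0.750 to 1.27 in rs1a, 0.382 to 2.03 in rs2). The factors were found from the values and divided out, after which 84.1% to 90.6% of low values were whole within 0.02 reads. The sources used here do not say what set them. Of 32660 entries 555 (1.70%) had no name and were left out.

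CPM values with TMM factors over all 20 libraries (edgeR 4.0.16) were tested with limma 3.58.1 in R 4.3.3 on log2(CPM + 1), with a mean trend and Benjamini-Hochberg adjustment over all genes that passed filterByExpr (minimum count 10); folds understate low genes. All 9 members passed in each model. TUT47MO and ConMO, early and late, were 1 model of 12 libraries with the matched set and hour as a block, since the series text calls the sets independent experiments. The log2 deviations of matched libraries from their group means had correlations of 0.456 to 0.930, though group means mix hours. The ConMO model held 6 libraries with set as a block (2 residual degrees of freedom). The rs1a model held 12 libraries with morpholino and hour. In the TUT47MO and ConMO models the block takes out the level of each set. Their p-values measure how the difference within a set varied from set to set, and the sets also differ in hour. All limma SEs and p-values are moderated, so they also draw on the spread of the other genes. Early and late effects of a gene share 1 estimate of that spread, so its SE is the same in both phases. An early SE thus also reflects late spread. In the rs1a model the spread is what remains after morpholino and hour, so an effect of a treatment at 1 hour alone adds to it. Median-of-ratios and deposited scaling, other pseudocounts and filters, edgeR and DESeq2 1.42.0 on rounded reads, and left-out libraries were tried. The analysis steps were tested on simulated data.

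All members are named. From each pathway list, genes marked beforehand and those with the highest and lowest late change are named. Members and lists were chosen with earlier results of these data known. Symbols were matched exactly, then without regard to case. Of the 9 members 8 had a current symbol in the reference name table. Levels were not divided by transcript length.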

Additional observations from a re-analysis of the deposited data

Results flagged for a closer look

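For 5 members the effect of TUT47MO against ConMO differed between late and early embryos by the test of the difference itself. Late minus early, it was 2.19 log2 for fam46c, 0.95 for papd7, 0.94 for fam46ba, 0.87 for PAPD5 and −0.60 for papd4. The late libraries of these comparisons also differ in the summed maternal and zygotic markers, and the part of that in the differences was not tested.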

How the results depend on the processing

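Of the members' values recomputed under other settings, 1427 kept their side of the threshold, 45 lost a call and 20 gained one. Of the 1427, 1331 also kept their sign and 96, which passed under neither setting, did not; 83 of the 96 were in the treatment contrasts of rs1a, such as PAPD5 in TUT47MO against ConMO (0.19, and −0.21 without 6 hpf) and fam46c in TUT4MO against ConMO (0.47, and −0.0023). A further 2 values called with TMM turned, both on the deposited scale between 4 and 6 hpf, zcchc11 to −0.21 and ZCCHC6 to −0.0002. Outside the treatment contrasts of rs1a, the other sign changes on that scale were fam46c (−0.06) and ZCCHC6 (−0.01) from 2 to 4 hpf, zcchc11 in the ConMO course (−0.12), tut1 late (0.05), and mtpap (0.12), papd7 (0.21) and zcchc11 (0.22) early. The medians of all genes on that scale were −0.12 from 2 to 4 hpf, −0.26 in the ConMO course, 0.32 late and 0.19 early. Leaving out 1 set turned 5 early values, fam46c, mtpap and papd7 without rs1a, zcchc11 without rs1b and ZCCHC6 without rs2, and leaving out ConMO turned PAPD5 from 4 to 6 hpf. The same scale left 2 members in place of 8 called in the ConMO course and 2 in place of 5 in the late minus early difference. On that scale 2596 genes were higher and 2046 lower in the ConMO course (6037 and 6477 with TMM), 2815 and 2523 in the late minus early difference (4726 and 4227), and 495 and 1030 from 2 to 4 hpf (521 and 302); DESeq2 gave 1343 and 808 in the last. With the 4 hpf pair counted as late, 2 members in place of 5 were called late and 0 in the difference, where fam46c stood at 1.64 (adjusted p = 0.155); at 4 hpf its TUT47MO and ConMO libraries held 277 and 279 CPM. With no replicate block the counts were 3 late and 1 in the difference, and tut1 lost its ConMO call (adjusted p = 0.219). DESeq2, median-of-ratios factors and the AC024175 entries left out gave 7 late, and 7, 7 and 6 in the difference. Leaving out 1 set at a time gave 4 to 6 members late, 1 to 6 in the difference and 7 to 8 in the ConMO course. Leaving out 1 treatment gave 1 to 2 members from 2 to 4 hpf and 6 to 8 from 4 to 6 hpf. The cause of these shifts was not tested. For fits with a set or treatment left out, with no block or with the 4 hpf pair as late, the share of all genes called is not given here. A further pair of settings was chosen after seeing the data. TMM over the compared libraries alone left the late count at 5. With the 6 rs1a libraries of high AC024175 share left out, mtpap was at −0.58 log2 in TUT47MO against ConMO and −0.66 against TUT4MO. That fit holds 1 TUT47MO library, at 2 hpf, assumed to vary like the others, so its calls are not read here. The shallowest library held 11914200 reads, and fam46ba at 1.18 and 1.99 CPM rests on the fewest reads of the 9.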
